A study of Mus musculus with 6 samples.

Results

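The transcriptional answer of mouse F9 cells to retinoic acid (RA) differed between a line with knock-down of the corepressor Ctbp2 and a control line, and the difference is described here gene by gene from a 2 x 2 of 4 libraries out of 6. F9 is a teratocarcinoma line, and the tested line carried a short hairpin RNA against Ctbp2 (shCtbp2) while the control line carried one against GFP (shGFP). The 4 libraries were shCtbp2_RA, shCtbp2_UT, shGFP_RA and shGFP_UT, where RA means 1 µM all-trans retinoic acid for the 48 hours before harvest and UT means untreated. All cells grew on gelatin, and their serum had been charcoal-stripped, a treatment that removes most retinoids. The remaining 2 libraries, shRxr_RA and shRxr_UT, came from a line with a hairpin against the retinoid X receptor and are used for comparison. For each gene the difference in RA response was the log2 change with RA in shCtbp2 minus that in shGFP, and 12332 of 25904 genes had a mean of at least 20 and were measured in this way. Levels are normalised reads, that is reads per 10000000 counted in genes, and log2 values were taken on level plus 10, which understates the change of low genes. Each group held 1 library, so no difference between libraries has a replicate check, and the labels do not say whether a line was 1 clone or a pool. Ranges in parentheses are 95% intervals for counting error only.

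RA acts through nuclear receptors of the RAR family, which sit on DNA as pairs with RXR at direct repeats of a short half-site. Without RA such pairs recruit corepressors, and with RA they exchange these for coactivators. Ctbp2 is a corepressor that binds NADH and joins DNA-binding repressors to enzymes that modify histones. In F9 cells RA is known for shutting down pluripotency genes, raising Hox genes and turning the cells toward primitive endoderm, the tissue that gives rise to the yolk sac.

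The libraries held from 9955808 to 13322506 gene-assigned reads, with the largest number in shGFP_RA. The shCtbp2_RA library, on which each difference rests, stood apart. It had a read in 18534 genes, against 19560 to 19862 in the other libraries, although shRxr_RA held fewer reads. Its 100 most abundant genes took 18.6% of reads, against 14.6% to 16.5% elsewhere, and its upper quartile of expressed genes was the lowest (317, against 336 to 376). The part of these properties in the results was not tested. Ctbp2 (ENSMUSG00000030970, mm9 chromosome 7, 140179246 to 140316037) stood at 55.4 in shCtbp2_RA and 210.1 in shCtbp2_UT, against 701 in shGFP_RA and 1811 in shGFP_UT. It was thus 12.6-fold lower in RA (9.65 to 16.9) and 8.62-fold lower untreated (7.57 to 9.85) in the knock-down line. Its paralog Ctbp1 was not depleted with it, with 2155 in shCtbp2_RA and 1127 in shCtbp2_UT against 1699 in shGFP_RA and 1141 in shGFP_UT. The untreated cells carried the markers of pluripotent cells, and Pou5f1 stood at 18524 in shCtbp2_UT and 18172 in shGFP_UT. Of 12 fibroblast and 12 blood and immune markers, 3 and 2 passed the minimum. Fap and Postn had no read in any library and Ptprc and Lyz2 none in the 4 libraries of the 2 x 2. Over the fibroblast list the summed level was 2803 in shCtbp2_RA and 681 in shCtbp2_UT, against 3210 in shGFP_RA and 809 in shGFP_UT, nearly all of it Fbln1, Pdgfrb and Col5a1. In bulk RNA, fewer cells of a type and less RNA per cell cannot be told apart.

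The RA response of the shCtbp2 line was lower than that of shGFP at many more genes than it was higher. A difference of -1 or less on the log2 scale, a response at least 2-fold lower, was found for 1535 genes (12.4% of those measured), and a difference of 1 or more for 335 genes (2.72%). The median difference over all genes was -0.13. At the threshold itself Mpped2 (-1.0001) was counted and Myo5a (-0.99989) was not, and on the other side Fam57b (1.0005) was counted and 1190003J15Rik (0.99876) was not. With RA 1864 genes rose and 2377 fell at least 2-fold in shCtbp2, whereas 1649 rose and 872 fell in shGFP. The balance of the sides moved with the scaling of the libraries. When all libraries were brought to equal upper quartiles the median difference was 0.10, and 879 genes were higher and 769 lower, so that 53.3% of the counted genes were higher, against 17.9% with the authors' scaling. With median-of-ratios scaling 519 were higher and 1113 lower, or 31.8% higher. Differences below are on the authors' scaling and are read beside the median of all genes.

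**Figure D1:**
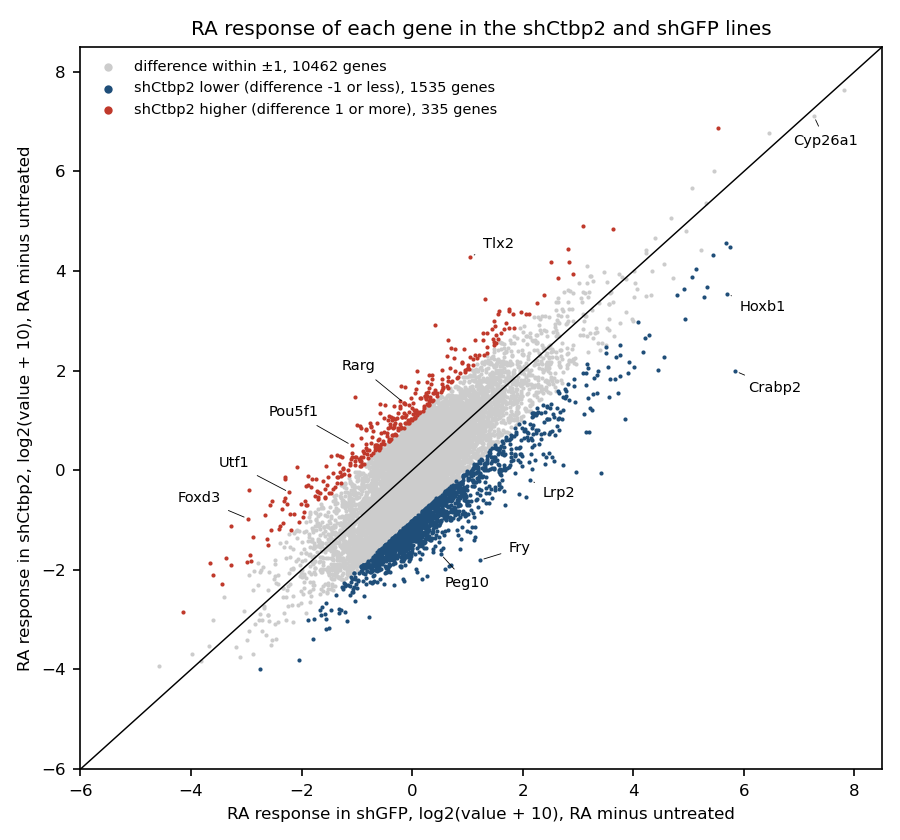
RA response of each of 12332 genes in the shCtbp2 line (vertical axis) and the shGFP line (horizontal axis), both as log2 of level plus 10, RA minus untreated, with the diagonal where both lines respond alike. The 1535 blue genes had a response at least 2-fold lower and the 335 red genes one at least 2-fold higher in shCtbp2; Crabp2 lies far to the right of the diagonal, Cyp26a1 on it and Tlx2 far above it.

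On the authors' scaling the commonest lower response was a fall that the control line did not show. Of the 1535 genes, 781 (50.9%) fell at least 2-fold with RA in shCtbp2 and neither rose nor fell 2-fold in shGFP. A further 231 (15.05%) rose at least 2-fold in shGFP and did neither in shCtbp2, 86 rose in both lines and 7 rose in shGFP and fell in shCtbp2. In 389 (25.3%) neither line passed 2-fold by itself. After GC content and transcript length were fitted out of the libraries, a correction described below, the falls in shCtbp2 alone made up 117 of 446 lower genes (26.2%) and the rises in shGFP alone 133 (29.8%). Among the 335 higher responses 112 (33.4%) rose in shCtbp2 and did neither in shGFP, and 72 (21.5%) fell in shGFP and did neither in shCtbp2. A further 50 rose in both, and in 81 (24.2%) neither line passed 2-fold by itself. On the authors' scaling, more of the lower than of the higher genes differed between the lines in the RA-treated cells alone. The order was reversed after the correction, at 233 of 446 lower genes (52.2%) and 215 of 379 higher genes (56.7%). Again on the authors' scaling, in 1097 of the lower genes (71.5%) the lines differed at least 2-fold in RA in the direction of the difference. They differed by less than 2-fold untreated. The same held for 164 of the higher genes (49.0%). In 52 lower and 46 higher genes the lines differed 2-fold in the untreated cells only, in the opposite direction, and in 359 lower and 116 higher genes they passed 2-fold at neither treatment. Set against the shRxr line as well, 1097 of the 1535 lower genes and 184 of the 335 higher genes were past the threshold in the same direction (the first count equals the one above by coincidence). Over all genes 22.1% were lower and 8.18% higher against shRxr. Both comparisons use the same shCtbp2 libraries, so part of this overlap is built in and it is not independent support.

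A limma trend model over all 6 libraries, which called no gene, asked a related question, since it set the RA response of shCtbp2 against the mean response of both other lines. Its 1 residual degree of freedom is the difference in RA response between shGFP and shRxr, which is a difference between lines and not between replicates. It passed 0 genes in either direction at an adjusted p under 0.05 (0% of 12332), with a smallest adjusted p of 0.16, and 2854 genes at an unadjusted p under 0.05. Fitted to the whole reads with voom the counts were 0 and 2695. On simulated data the fit recovered 18% of 100 genes changed 2-fold and 95% of 100 changed 4-fold among 12332 genes. Of its 118 calls there 4.24% were false. The simulated shGFP and shRxr lines had the same RA response, so the residual held only noise between libraries. In the data 1649 genes rose at least 2-fold in shGFP and 649 in shRxr. The simulated shares therefore do not carry over to the fit of the data.

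GC content moved with the difference. Genes were split into 3 equal groups by GC content. In the group with the lowest GC content the median difference was -0.62, and 21.4% were at least 2-fold lower and 0.396% higher. In the group with the highest it was 0.32, with 3.17% lower and 6.16% higher. Transcript length ran the other way, with a median of -0.57 in the longest of 3 equal groups and 0.26 in the shortest. The genes counted as lower had a median GC content of 46.2% and a median length of 5046 bases, those counted as higher 56.5% and 2216 bases, and all genes 50.1% and 3450 bases. The Spearman correlation of the difference was 0.52 with GC content and -0.46 with length, over 12133 genes of the same 4 libraries. In the RA-treated cells the median difference between shCtbp2 and shGFP was -0.68, -0.14 and 0.27 in the groups of low, middle and high GC content, while in untreated cells it was between -0.05 and -0.01. The RA response followed GC content in shGFP as well, and over 10 equal groups its median ran from -1.04 in the lowest to 0.82 in the highest in shCtbp2, from -0.51 to 0.42 in shGFP and from 0.14 to 0.05 in shRxr. With 1 library a group, properties of the RA libraries and responses of the cells that follow GC content cannot be told apart. Differences are also given after both features were fitted out of every library, called the corrected difference. On that scale 379 genes were higher (3.12%) and 446 lower (3.68%) of 12133. Of the 1510 lower genes with both features, 338 were also lower after the correction, 22.4% of the first list and 75.8% of the second. On the higher side 141 were shared, 43.0% of 328 and 37.2% of 379.

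**Figure D2:**
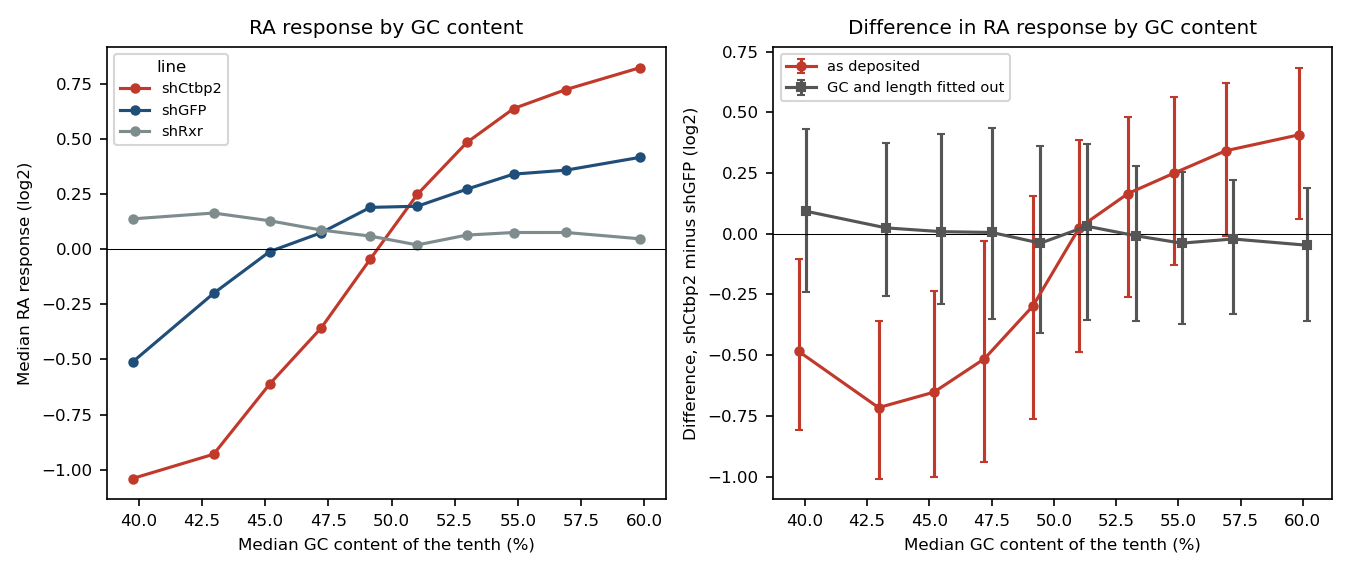
Left, median RA response (log2) of the genes in each of 10 equal groups by GC content for the shCtbp2, shGFP and shRxr lines; right, median difference in RA response, shCtbp2 minus shGFP, with bars from the lower to the upper quartile, as deposited and after GC content and length were fitted out. The difference ran from its lowest value, -0.72 in the group next to the lowest GC content, to 0.41 in the group of highest GC content, and the corrected medians lay between -0.05 and 0.09.

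Crabp2, the cellular RA-binding protein that carries RA to its receptors, had the lowest difference of all genes named here. Crabp2 (ENSMUSG00000004885, chromosome 3, 87752588 to 87757298) stood at 181 (156 to 209) in shCtbp2_RA and 38.0 (27.9 to 50.7) in shCtbp2_UT, against 1399 (1336 to 1464) in shGFP_RA and 14.5 (8.59 to 22.9) in shGFP_UT. It rose in both lines, 4.76-fold (3.43 to 6.73) in shCtbp2 and 96.5-fold (60.9 to 163) in shGFP. Its difference was -3.85, and -4.07 after correction. The lines thus stood in opposite order at the 2 treatments, with the shCtbp2 line 7.72-fold lower in RA (6.63 to 9.04) and 2.62-fold higher untreated (1.49 to 4.81). In the shRxr line Crabp2 stood at 206 with RA and 14.2 untreated, so its RA level was close to that of shCtbp2 there too.

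Fry, a large protein of cell shape and polarity, turned round. Fry (ENSMUSG00000056602, chromosome 5, 150921242 to 151300327) stood at 37.6 in shCtbp2_RA and 156 in shCtbp2_UT, against 136 in shGFP_RA and 52.3 in shGFP_UT. It fell 4.16-fold with RA in shCtbp2 (2.92 to 6.06) and rose 2.60-fold in shGFP (1.94 to 3.50), a difference of -3.03 and of -2.53 after correction. It stood at 31.1 with RA and 35.1 untreated in shRxr. The RA levels of the 2 knock-down lines were close, and the shCtbp2 line stood apart in being 2.99-fold higher than shGFP before treatment (2.24 to 4.02).

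On the other side stood Tlx2 and Foxd3, homeobox and forkhead factors known from the neural crest and its neurons. Tlx2 (ENSMUSG00000068327, chromosome 6, 83018311 to 83020287) stood at 250.4 (220.5 to 283) in shCtbp2_RA and 3.31 in shCtbp2_UT, against 15.8 (9.76 to 24.1) in shGFP_RA and 2.42 in shGFP_UT. Both untreated libraries held 3 or 4 reads, so the rise is best read from the RA libraries, where shCtbp2 was 15.9-fold higher (10.2 to 26.1). The difference was 3.24, the highest of the genes named here, and 2.45 after correction, and shRxr_RA stood at 20.1. Foxd3 (ENSMUSG00000067261, chromosome 4, 99322990 to 99325362) also marks pluripotent cells, and here it was a fall that was smaller. It stood at 414 in shCtbp2_RA and 821 in shCtbp2_UT, against 77.3 in shGFP_RA and 674 in shGFP_UT. The fall was 1.99-fold in shCtbp2 (1.77 to 2.23) and 8.72-fold in shGFP (7.10 to 10.8), a difference of 1.998 and a corrected one of 1.35. In shRxr Foxd3 stood at 248 with RA and 613 untreated, and with shRxr in place of shGFP the difference was only 0.30.

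The rest of the 15 lowest differences held genes of very unlike function. Fras1 and Thsd4, proteins of the extracellular matrix, had far lower RA levels in shCtbp2 than in shGFP. Fras1 stood at 16.8 in shCtbp2_RA and 17.4 in shCtbp2_UT, against 390 in shGFP_RA and 41.1 in shGFP_UT, a difference of -3.00. Thsd4 stood at 18.8 in shCtbp2_RA and 4.14 in shCtbp2_UT, against 226 in shGFP_RA and 6.44 in shGFP_UT, a difference of -2.82. Clgn (a chaperone of the endoplasmic reticulum), Amot (a scaffold of the Hippo pathway), Zdhhc2 (a palmitoyltransferase) and Mecom (a zinc finger factor that binds CtBP) rose with RA in shGFP and less or not at all in shCtbp2. Clgn, for example, stood at 631 in shCtbp2_RA and 582 in shCtbp2_UT, against 1609 in shGFP_RA and 234 in shGFP_UT. Their differences lay between -2.62 and -2.42 and their corrected differences between -1.92 and -1.58.

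A second set fell with RA in shCtbp2 and rose in shGFP. Rragd (a Rag GTPase of amino acid sensing), Il17rd (an inhibitor of FGF signalling), Prdm1 (the repressor Blimp1), Gpr161 (a receptor that restrains Hedgehog signalling) and Ptpn13 (a tyrosine phosphatase) were 2.59 to 4.54-fold lower with RA in shCtbp2 and 1.55 to 2.54-fold higher in shGFP. Il17rd stood at 263 in shCtbp2_RA and 1031 in shCtbp2_UT, against 1293 in shGFP_RA and 814 in shGFP_UT. Prdm1 stood at 47.5 in shCtbp2_RA and 216 in shCtbp2_UT, against 191 in shGFP_RA and 123 in shGFP_UT. Differences of these 5 genes ran from -2.60 to -2.48. Tshz1, a zinc finger factor, kept a rise in both lines, 5.76-fold in shCtbp2 (3.57 to 9.70) and 34.9-fold in shGFP (22.5 to 57.5).

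The highest 15 differences fell into rises seen in shCtbp2 and falls that were weaker there. Mylpf, a light chain of fast muscle myosin, rose 2.83-fold in shCtbp2 (2.55 to 3.16) and fell 2.08-fold in shGFP (1.87 to 2.31). It stood at 1146 in shCtbp2_RA and 404 in shCtbp2_UT, against 393 in shGFP_RA and 817 in shGFP_UT. Inhbb, which encodes the subunit of activin B, stood at 1877 in shCtbp2_RA and 466 in shCtbp2_UT, against 678 in shGFP_RA and 639 in shGFP_UT. Its rise of 4.02-fold in shCtbp2 (3.66 to 4.43) met a ratio of 1.06 in shGFP (0.964 to 1.17), but in shRxr it stood at 2152 with RA and 1469 untreated, above shCtbp2 at both treatments. Ggt1 (which breaks down glutathione), Hsd17b14 (a steroid dehydrogenase), Arc and E130309D14Rik rose 2.52 to 6.69-fold in shCtbp2. Cidea, a lipid droplet protein, rose in both lines and stood at 365 in shCtbp2_RA and 2.48 in shCtbp2_UT, against 96.1 in shGFP_RA and 2.42 in shGFP_UT.

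Among the weaker falls were Nphs1 (nephrin), Sept1 (a septin), Pla2g10 (a secreted phospholipase), Slc28a1 (a nucleoside transporter) and Tdh, threonine dehydrogenase, an enzyme that pluripotent mouse cells depend on. Tdh stood at 941 in shCtbp2_RA and 3462 in shCtbp2_UT, against 291 in shGFP_RA and 3786 in shGFP_UT. Nphs1 stood at 158 in shCtbp2_RA and 212 in shCtbp2_UT, against 22.5 in shGFP_RA and 240.0 in shGFP_UT. The 5 genes fell 6.58 to 13.0-fold in shGFP and 1.14 to 3.68-fold in shCtbp2, so that the untreated lines were close and the treated ones were not. All 5 also fell less in shRxr than in shGFP, with log2 responses in shRxr from -2.34 (Tdh) to -1.01 (Slc28a1). The weaker fall was thus not particular to shCtbp2, though it was weaker there than in shRxr. The corrected differences of the 15 genes lay between 1.26 and 2.45, and their sign was fixed by the rule that chose them.

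**Figure D3:**
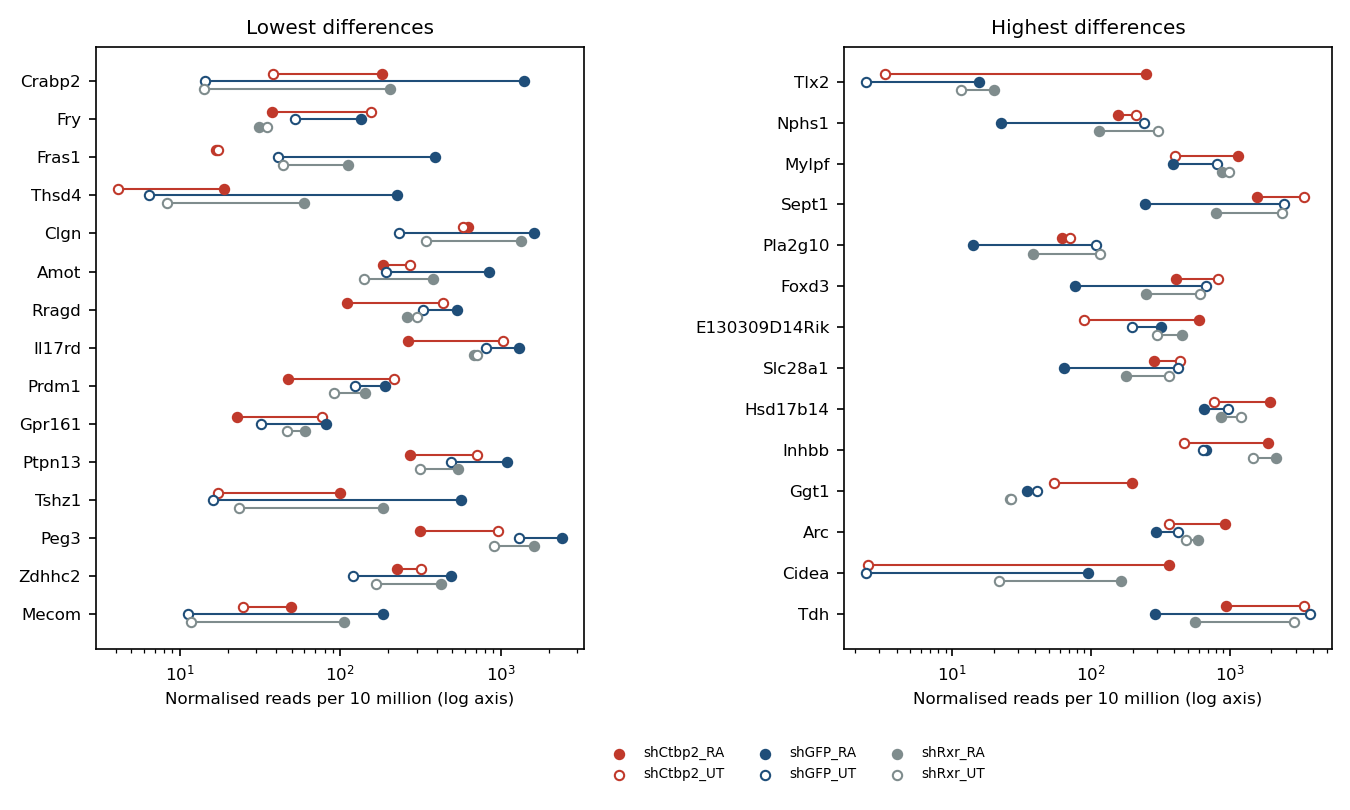
Normalised reads (log axis) of the 15 genes with the lowest and 14 of the 15 with the highest difference in RA response, with filled points for RA and open points for untreated libraries of the shCtbp2, shGFP and shRxr lines. Crabp2 reached 181 in shCtbp2_RA and 1399 in shGFP_RA, and Tlx2 250.4 in shCtbp2_RA and 15.8 in shGFP_RA.

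Retinoid genes were not moved together. Of 25 direct RA targets and genes of retinoid metabolism 21 were measured. At least 2-fold lower were 7 (33.3%, beside 12.4% of all genes), and 2 were higher (9.52%, beside 2.72%). The median difference was -0.22 beside -0.13 over all genes (0.03 beside 0.10 with equal upper quartiles). The corrected median was -0.35 beside 0.00, with 4 lower and 1 higher. Among the proteins that take up and carry retinoids, Stra6, the uptake receptor, went the other way from Crabp2. It stood at 1252 in shCtbp2_RA and 0.827 in shCtbp2_UT, where the last value is 1 read, against 748 in shGFP_RA and 6.44 in shGFP_UT. The difference was 1.34 (0.99 corrected). Part of it came from the few untreated reads, since shCtbp2 minus shGFP on the log2 scale was 0.73 in RA and -0.60 untreated.

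The 3 receptors for RA differed from one another. Rarg, the main RA receptor of these cells, stood at 5818 in shCtbp2_RA and 2285 in shCtbp2_UT, against 2534 in shGFP_RA and 2791 in shGFP_UT. It rose 2.55-fold in shCtbp2 (2.43 to 2.67) and fell 1.1-fold in shGFP (1.05 to 1.16), a difference of 1.48 and of 1.06 after correction. Rarb, the receptor gene that RA itself induces, stood at 145 in shCtbp2_RA and 2.48 in shCtbp2_UT, against 390 in shGFP_RA and 3.22 in shGFP_UT, a difference of -1.28 (-0.92 corrected). Rara had a difference of 0.44, and Rxra and Rxrb of 0.50 and 0.56.

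Enzymes that break RA down split as well. Cyp26a1, the chief of them, stood at 2064 in shCtbp2_RA and 4.96 in shCtbp2_UT, against 2894 in shGFP_RA and 8.86 in shGFP_UT, and its difference of -0.15 was near the median of all genes. Cyp26b1 stood at 273 in shCtbp2_RA and 4.14 in shCtbp2_UT, against 743 in shGFP_RA and 7.25 in shGFP_UT (difference -1.12). Cyp26c1 stood at 45.5 in shCtbp2_RA and 4.96 in shCtbp2_UT, against 137 in shGFP_RA and 0.805 in shGFP_UT, where the last value is 1 read (difference -1.87). With shRxr in place of shGFP the differences of Cyp26b1 and Cyp26c1 were positive, 2.20 and 0.38. Among enzymes that set RA supply, the retinol dehydrogenase Rdh10 had a difference of -0.57, the retinal reductase Dhrs3 of -0.73 and the RA-making Aldh1a2 of -0.29. Stra8, Cdx1 and Zfp703, targets that rose strongly in both lines, had differences of -0.19, 0.55 and 0.33. Nrip1, a target that encodes a corepressor binding to liganded receptors and to CtBP, stood at 562 in shCtbp2_RA and 283 in shCtbp2_UT, against 1475 in shGFP_RA and 275 in shGFP_UT (difference -1.42, corrected -0.37).

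Promoters were searched for the sequence that RAR and RXR bind. The half-site could be AGGTCA. It could also be GGGTCA. Another allowed form was AGTTCA. The last allowed form was GGTTCA. The search asked for a pair of half-sites in the same orientation, 1, 2 or 5 bases apart, on either strand of RefSeq windows from 250 bases before to 50 after each start (GRCm38.p6). It found one in 193 of 32851 windows (0.588%). Among genes with a window, one was found in 38 of 8728 measured (0.435%), 4 of 1084 lower (0.369%) and 1 of 223 higher genes (0.448%). The other measured genes, Crabp2 and Tlx2 among them, had no window and were not searched. In the genes of the lists and those named by size that had a window, 2 windows held one. These were the windows of Cyp26a1 and Rarb, each with 5 bases between the half-sites. They are shown because both genes are induced by RA and their differences are unlike, -0.15 for Cyp26a1 and -1.28 for Rarb; the half-sites are in capitals, 5′ to 3′ on the strand of the gene. The Cyp26a1 window is chr19:37697558-37697857 on the plus strand, with the repeat on the opposite strand, and the Rarb window is chr14:16575427-16575726 on the minus strand. The presence of the letters is a description and was not related to binding.
Cyp26a1: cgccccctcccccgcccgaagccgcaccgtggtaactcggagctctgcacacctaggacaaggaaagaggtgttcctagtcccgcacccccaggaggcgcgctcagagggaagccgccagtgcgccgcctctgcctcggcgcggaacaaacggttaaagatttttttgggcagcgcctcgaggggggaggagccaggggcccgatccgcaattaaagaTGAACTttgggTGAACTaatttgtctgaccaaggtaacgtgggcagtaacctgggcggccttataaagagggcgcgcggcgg
Rarb: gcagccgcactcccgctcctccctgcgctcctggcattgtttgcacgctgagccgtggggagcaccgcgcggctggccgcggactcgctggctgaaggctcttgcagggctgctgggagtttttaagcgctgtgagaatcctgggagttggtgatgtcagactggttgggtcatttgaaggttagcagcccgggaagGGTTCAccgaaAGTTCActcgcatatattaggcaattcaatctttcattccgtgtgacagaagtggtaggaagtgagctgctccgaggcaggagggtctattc

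Hox genes, which pattern the body axis and are classic RA targets, had lower responses in the shCtbp2 line. Of 15 anterior Hox genes 10 were measured and all 10 had negative differences, beside 6971 of 12332 over all genes. The lowest was at -2.16. At least 2-fold lower were 5 of them (50%, beside 12.4% of all genes). With equal upper quartiles 9 of 10 were negative, and with a pseudocount of 1 the count was 8. The median was -1.01, and -1.24 after correction, with 6 of 10 lower. Hoxb1 stood at 106 in shCtbp2_RA and 0 in shCtbp2_UT, against 551 in shGFP_RA and 0.805 in shGFP_UT. Hoxb2 stood at 25.7 in shCtbp2_RA and 110 in shGFP_RA, with no read in either untreated library. Hoxa5 stood at 360 in shCtbp2_RA and 6.62 in shCtbp2_UT, against 661 in shGFP_RA and 2.42 in shGFP_UT. In RA these 3 genes were 5.20-fold (4.24 to 6.43), 4.26-fold (2.79 to 6.74) and 1.84-fold (1.62 to 2.08) lower in shCtbp2. The shRxr_RA library stood at 123 for Hoxb1, 30.1 for Hoxb2 and 263 for Hoxa5, so both knock-down lines lay below shGFP for each of them. Set against shRxr in place of shGFP, the response of Hoxa5 was 0.45 higher in shCtbp2.

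Posterior Hox genes and the proteins that bind DNA with Hox factors had negative medians as well. Of 24 posterior Hox genes 9 were measured, with 3 lower (33.3%, beside 12.4% of all genes) and none higher. The median was -0.79 (-1.32 corrected, 6 lower). Hoxb9 stood at 234 in shCtbp2_RA and 48.0 in shCtbp2_UT, against 671 in shGFP_RA and 48.3 in shGFP_UT. Hoxd8 and Hoxd9 differed in the untreated cells, where each stood at 43.8 in shCtbp2_UT, against 1.61 and 2.42 in shGFP_UT. Of 9 cofactors 4 were lower (44.4%, beside 12.4% of all genes) and none higher. The median was -0.49 (-0.26 with equal upper quartiles, where 4 were positive and 5 negative). Meis2 stood at 252 in shCtbp2_RA and 219 in shCtbp2_UT, against 716 in shGFP_RA and 112 in shGFP_UT (difference -2.38, corrected -1.50).

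Many pluripotency genes fell less, or rose, in the shCtbp2 line compared with shGFP, and the shRxr line had a smaller fall than either by the median of the list. The median RA response was -0.71 in shCtbp2, -0.47 in shRxr and -1.06 in shGFP. All 32 listed genes were measured. At least 2-fold higher were 10 (31.25%, beside 2.72% of all genes), and 2 were lower (6.25%, beside 12.4%). The median difference was 0.59 (0.42 corrected, 11 higher and 3 lower). Pou5f1, which encodes Oct4 (ENSMUSG00000024406, chromosome 17, 35642982 to 35647721), stood at 26185 in shCtbp2_RA and 18524 in shCtbp2_UT, against 8530 in shGFP_RA and 18172 in shGFP_UT. It rose 1.41-fold in shCtbp2 (1.39 to 1.44) and fell 2.13-fold in shGFP (2.08 to 2.18), a difference of 1.59 and a corrected one of 1.01. Esrrb, Klf2 and Dppa5a likewise had a higher level with RA in shCtbp2 and a lower one in shGFP. Klf2, for example, stood at 6104 in shCtbp2_RA and 3896 in shCtbp2_UT, against 2223 in shGFP_RA and 4232 in shGFP_UT.

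Other members fell in both lines and by less in shCtbp2. Utf1, a chromatin protein of undifferentiated cells, fell 1.36-fold in shCtbp2 (1.28 to 1.45) and 4.73-fold in shGFP (4.35 to 5.15), the highest difference of the list (1.78, corrected 1.06). Tcl1, Nr0b1, Prdm14, Tdgf1 and Fgf4 had differences between 1.28 and 1.76. Nanog stood at 5868 in shCtbp2_RA and 7231 in shCtbp2_UT, against 3258 in shGFP_RA and 6748 in shGFP_UT (difference 0.75), and its response of -0.30 in shCtbp2 was close to the -0.25 in shRxr. Sox2 and Zfp42, also known as Rex1, did not share this. Sox2 stood at 1597 in shCtbp2_RA and 4616 in shCtbp2_UT, against 1480 in shGFP_RA and 4845 in shGFP_UT, and Zfp42 had a difference of -0.03. Members on the opposite side were Lefty1 and Lefty2, inhibitors of Nodal, with -1.57 and -1.59. The untreated lines were close over the list, with a median difference between shCtbp2 and shGFP of 0.02.

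**Figure D4:**
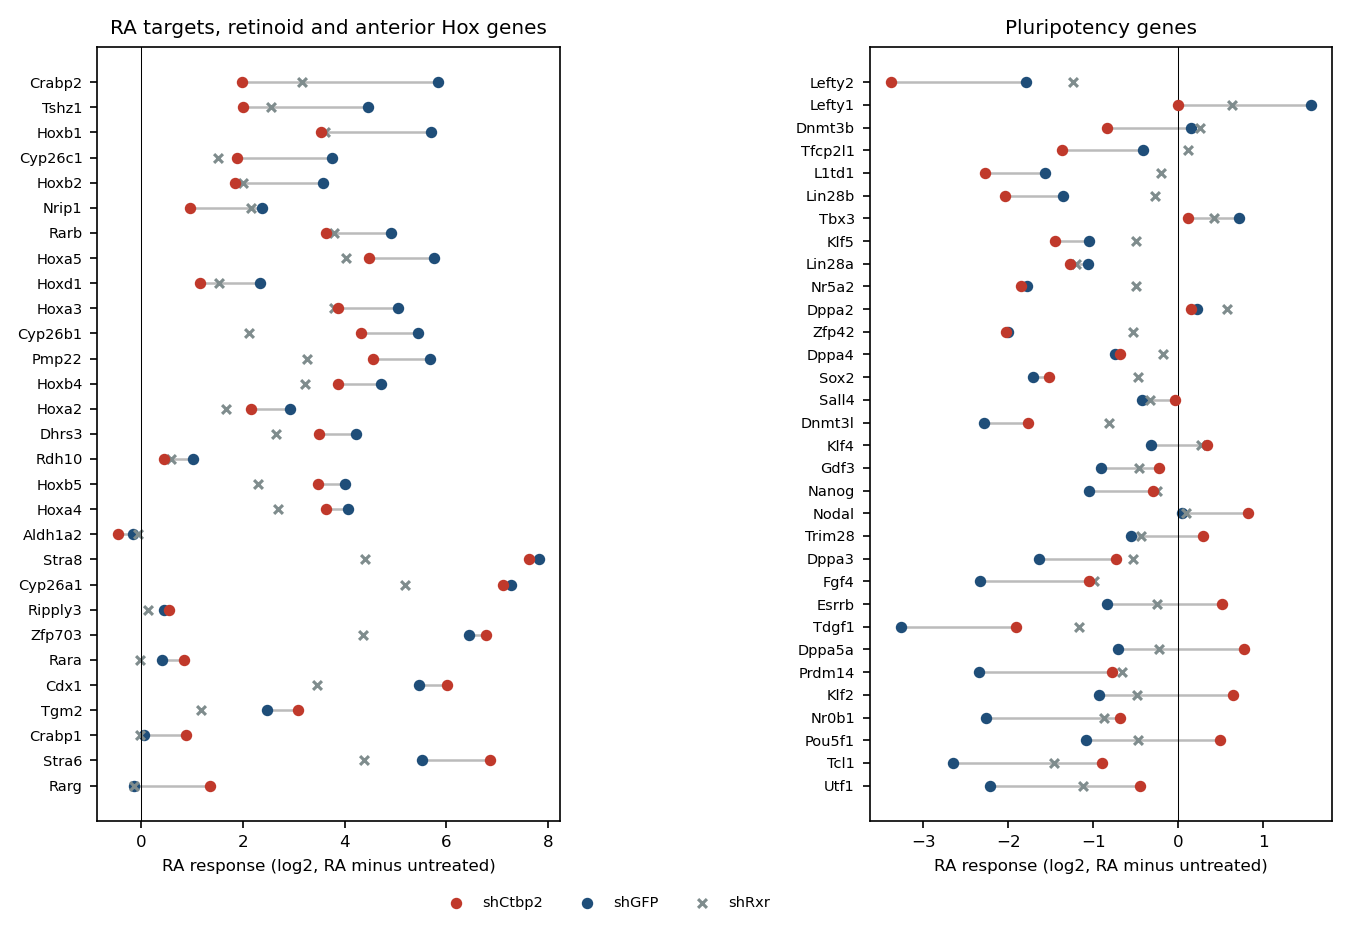
RA response (log2 of level plus 10, RA minus untreated) in the shCtbp2, shGFP and shRxr lines for 20 of 21 measured retinoid and 9 of 10 measured anterior Hox genes (left) and pluripotency genes (right), ordered by the difference between shCtbp2 and shGFP. On the left the gap was widest at Crabp2, and the 9 anterior Hox genes drawn lay lower in shCtbp2. On the right 20 of 32 genes lay higher in shCtbp2, beside 5361 of 12332 over all genes.

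Lists of endoderm genes, the fate F9 cells take with RA, had medians on both sides of 0. Of 14 primitive endoderm regulators 13 were measured, with 4 lower (30.8%, beside 12.4% of all genes), none higher (2.72% of all genes) and a median of -0.35 (-0.48 corrected, 3 lower). Gata4 and Gata6, the factors that specify the lineage, had differences of -0.08 and 0.13. Gata6 stood at 435 in shCtbp2_RA and 11.6 in shCtbp2_UT, against 739 in shGFP_RA and 29.8 in shGFP_UT. Lrp2, megalin, the uptake receptor of the mature layer, stood at 393 in shCtbp2_RA and 454 in shCtbp2_UT, against 2963 in shGFP_RA and 668 in shGFP_UT. It was 1.16-fold lower with RA in shCtbp2 (1.01 to 1.32) and 4.44-fold higher in shGFP (4.12 to 4.79), a difference of -2.34 (-1.46 corrected). Dab2, an adaptor for such receptors, had -1.24 (-0.52 corrected). The growth factor receptor Pdgfra had -1.43 (-0.70 corrected) and the nuclear receptor Nr2f2 -2.38 (-1.69 corrected).

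Genes of the basement membrane that parietal endoderm secretes were counted next. Of 20 measured 5 were lower (25%, beside 12.4% of all genes) and none higher, with a median of -0.56 (-0.37 corrected, 5 lower). Lamc1, a laminin chain, stood at 4660 in shCtbp2_RA and 8165 in shCtbp2_UT, against 10458 in shGFP_RA and 6993 in shGFP_UT (difference -1.39). Its partner chain Lamb1 had -0.12 and Col4a2 -0.31. The keratin Krt8 rose in both lines, but it started higher in the knock-down line, with 2408 in shCtbp2_RA and 1751 in shCtbp2_UT against 922 in shGFP_RA and 300 in shGFP_UT. Of 17 visceral endoderm markers 8 were measured, 2 lower and 1 higher, with a median of 0.29 (-0.13 corrected). A positive difference was seen in 5 of the 8, beside 5361 of 12332 over all genes. Cubn, cubilin, the partner of megalin, stood at 82.1 in shCtbp2_RA and 62.9 in shCtbp2_UT, against 248 in shGFP_RA and 36.2 in shGFP_UT (difference -2.14), and Hhex had 1.01.

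Imprinted genes, of which the cell uses the copy from 1 parent, held several of the lower responses. Of 28 listed 21 were measured, with 8 lower (38.1%, beside 12.4% of all genes) and 1 higher (4.76%, beside 2.72%). The median was -0.61 (-0.42 corrected, with 6 lower and none higher of 19). Peg10, a gene derived from a retrotransposon, stood at 2139.9 in shCtbp2_RA and 6886 in shCtbp2_UT, against 10888 in shGFP_RA and 7621 in shGFP_UT. It fell 3.22-fold in shCtbp2 (3.07 to 3.38) and rose 1.43-fold in shGFP (1.39 to 1.47). Peg3 and Mest had the same form, with differences of -2.45 and -2.28. Igf2, the growth factor, rose in both lines and stood at 144 in shCtbp2_RA and 19.9 in shCtbp2_UT, against 1108 in shGFP_RA and 51.5 in shGFP_UT (difference -1.81, corrected -1.94). A second form was seen in the transcripts Meg3 and Rian of one cluster, which stood lower in shCtbp2 at both treatments. Meg3 stood at 40.6 in shCtbp2_RA and 81.9 in shCtbp2_UT, against 349 in shGFP_RA and 480.0 in shGFP_UT, so its difference was only -0.41, and it was 0.44 after correction.

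Most glycolytic enzymes had a higher RA response in shCtbp2, few of them past the threshold. Of 23 measured genes of glycolysis and hypoxia 3 were higher (13.0%, beside 2.72% of all genes) and none lower (12.4% of all genes). A positive difference was seen in 18, beside 5361 of 12332 over all genes, and the median was 0.61 (0.38 corrected). Ldha, lactate dehydrogenase, stood at 8699 in shCtbp2_RA and 11568 in shCtbp2_UT, against 3970 in shGFP_RA and 13139 in shGFP_UT. It fell 1.33-fold in shCtbp2 (1.29 to 1.37) and 3.31-fold in shGFP (3.21 to 3.41). Pkm2 (pyruvate kinase) and Aldoa (aldolase) had differences of 1.03 and 1.04, and Pgam1, Pfkl, Tpi1 and Eno1 of 0.97, 0.95, 0.91 and 0.88. The 5 negative members were Bnip3 (-0.74), Vegfa (-0.55), Pdk1 (-0.52), Aldoc (-0.32) and Hk1 (-0.05). The median RA response of the list was -0.10 in shCtbp2, -0.56 in shRxr and -0.83 in shGFP, so shRxr also fell less than shGFP.

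Partners of Ctbp2 and coregulators of nuclear receptors were counted next. Of 22 measured CtBP partners 6 were lower (27.3%, beside 12.4% of all genes) and 1 higher (4.5%, beside 2.72%). The median was -0.38 (-0.27 corrected, 2 lower and none higher). Rcor2 (a CoREST subunit) had 1.28 (0.78 corrected), and Rcor1, its relative, -1.14 (-0.54 corrected). Of 18 coregulators 7 were lower (38.9%, beside 12.4% of all genes) and none higher, with a median of -0.60. That list was made of long genes, with a median length of 7531 bases, and its corrected median was -0.09 with none lower of 17. Ep300, the acetyltransferase p300, stood at 981 in shCtbp2_RA and 2608 in shCtbp2_UT, against 2724 in shGFP_RA and 3021 in shGFP_UT (difference -1.25, corrected -0.76).

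Signalling genes had differences in both directions, and their counts stand beside 12.4% lower and 2.72% higher over all genes. Nodal and activin genes had 3 lower and 2 higher of 17, BMP, Wnt and FGF genes 2 lower and 3 higher of 21, and Notch genes 1 lower and 2 higher of 12. Bmp4 stood at 567 in shCtbp2_RA and 1452 in shCtbp2_UT, against 163 in shGFP_RA and 1259.7 in shGFP_UT (difference 1.54). Notch4 had 1.61 and Notch2 -1.41. Within the receptors and ligands of a pathway the sign was not shared.

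Epithelial junction and keratin genes had 6 lower (27.3%, beside 12.4% of all genes) and 2 higher (9.09%, beside 2.72%) of 22, with a median of -0.41. Dsp, desmoplakin, stood at 882 in shCtbp2_RA and 2106 in shCtbp2_UT, against 1636 in shGFP_RA and 783 in shGFP_UT (difference -2.30, corrected -1.88). The line difference in Dsp turned round with treatment, 1.85-fold lower in RA (1.71 to 2.01) and 2.69-fold higher untreated (2.50 to 2.90). Krt17 and Lgals3 were higher in shCtbp2 at both treatments. Among mesenchymal genes 3 of 10 were lower (30%, beside 12.4% of all genes) and none higher. Cdh2, N-cadherin, stood at 108 in shCtbp2_RA and 130 in shCtbp2_UT, against 372 in shGFP_RA and 118 in shGFP_UT (difference -1.83).

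Neural crest genes other than Tlx2 and Foxd3 included Mitf, Ednrb and Sox9 on the lower side (-1.76, -1.72 and -1.57, or -0.94, -0.999 and -1.23 corrected). This gave 3 lower and 2 higher of 12, beside 12.4% lower and 2.72% higher over all genes. Neuroectoderm genes had 2 lower, Nes (-2.08, corrected -2.05) and Ncam1 (-1.45, corrected -0.94), and 1 higher, Tubb3 (1.19, corrected 0.66), of 8. The 26 cell cycle genes were almost all inside the threshold, with Ccnd2 (-1.55) and Ccne1 (1.49) as the exceptions. None of 20 genes of the unfolded protein and stress response and none of 12 mitochondrially encoded genes passed it in either direction. The counts of the remaining lists stand beside the same 12.4% lower and 2.72% higher over all genes. Polycomb and DNA methylation genes had 2 lower and none higher of 17 (median -0.30, 0.17 corrected), and genes of the NuRD complex, which removes acetyl groups from histones, 3 lower and none higher of 13. Cholesterol synthesis genes had 2 lower of 21, interferon response genes 2 of 8 and trophoblast genes 2 of 7, with none higher in any of these lists. Genes that p53 controls and cell cycle inhibitors had 1 lower and 1 higher of 18, and of 15 mesoderm and primitive streak genes 3 were measured, none past the threshold.

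**Figure D5:**
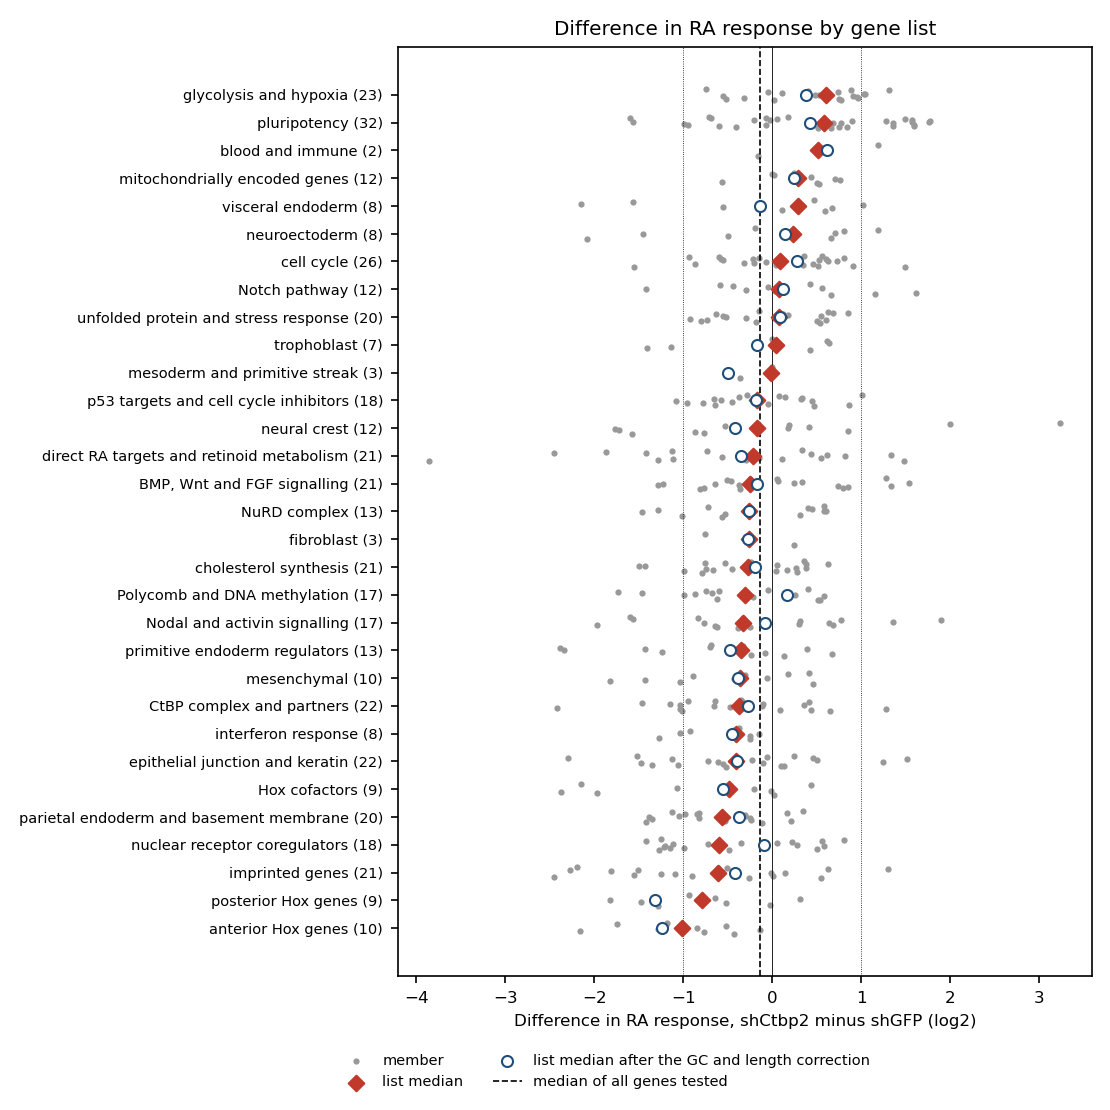
Difference in RA response (log2, shCtbp2 minus shGFP) of each measured member of 31 gene lists (grey), with the list's median as deposited (diamond) and after GC content and length were fitted out (open circle), beside the median of all genes (-0.13, dashed). Medians ran from -1.01 in anterior Hox genes to 0.61 in glycolysis and hypoxia genes.

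The shRxr line gave classes of RA-responsive genes from libraries outside the 2 x 2. Of 649 genes that rose at least 2-fold with RA in shRxr, 26.8% were lower and 3.39% higher in the difference between shCtbp2 and shGFP, with a median of -0.45. Of 180 genes that fell there, 26.7% were higher and 6.11% lower, with a median of 0.34. The 11503 genes that did neither had 11.7% lower and 2.30% higher and a median of -0.12. By the median, genes that rose with RA in shRxr thus had a lower response in shCtbp2 than in shGFP, and genes that fell with RA had a higher one. After the correction the lower share was 18.5% among genes that rose, and the higher share 18.8% among those that fell, beside 2.97% and 2.83% among those that did neither.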

How the data were processed

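Per the submitters' processing notes, TopHat 1.4 was used for alignment and HTSeq for counting reads in Ensembl genes on mm9, with the strand setting, annotation release and further parameters not given in the sources used here. Values deposited by the authors are log2 values. In each library, 2 to the power of a value, minus 1, summed to 10000000 over genes, and 100% of these levels were whole multiples of 1 read within 1e-06 of a read, so a level counts reads per 10000000. Coordinates are mm9, and 25 symbols turned into dates (Sept1 among them) were restored from the gene identifiers.

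A pseudocount of 10 was added before the log2. Genes needed an average level of 20 or more across the 6 libraries, and differences were counted at 1 or more either way. Intervals are exact Poisson (levels) and Clopper-Pearson (folds), at 95%. A linear model with a mean-variance trend (R 4.3.3, limma 3.58.1) had line, RA and the product of shCtbp2 with RA as terms. Its p-values were adjusted by Benjamini-Hochberg across every gene in the fit, and it was tested on simulated data. GC content and length came from the longest GENCODE M21 transcript and were available for 98.4% of genes. Lowess curves (statsmodels 0.14.6, span 0.3) of each library's deviation from the mean of all libraries were subtracted. Statistics used scipy 1.17.1 with pandas 2.3.3 and numpy 2.4.6 on Python 3.11.15, and plots matplotlib 3.10.9.

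Gene lists (33, which overlap) and the members were chosen with earlier results of these data known. Genes named by rule were the 15 highest and 15 lowest differences at an average level of 50 or more and with the same sign under every scaling, pseudocount and the correction, the 4 markers of the comparison, the hairpin targets and their paralogs, and up to 4 members of each list with the largest differences. Other members of the lists were named after their values were seen, for their known roles. Some genes that the rule named are not reported here.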

Additional observations from a re-analysis of the deposited data

How the results depend on the processing

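No paired analysis was possible because each group held 1 library, and for the same reason no replicate could be left out. Of the settings tried, 335 higher and 1535 lower genes became 146 and 896 with a pseudocount of 50, 208 higher with a minimum mean of 100, and 879 and 769 with equal upper quartiles. Median-of-ratios scaling gave 519 higher, the GC content and length correction 446 lower, and shRxr in place of shGFP 1009 and 2723. Of the lower genes, those that rose in shGFP and did neither in shCtbp2 were 17.9% with equal upper quartiles and 29.8% with the correction, and of the higher genes those that fell in shGFP alone were 15.2% with equal upper quartiles. Lower genes whose lines differed in RA only were 60.0% with equal upper quartiles, 63.6% with median-of-ratios scaling and 52.2% with the correction. The same share of higher genes was 65.1% with a pseudocount of 50 and 56.7% with the correction.

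The shares by class in shRxr moved as well. Among genes that rose there, the lower share was 23.4% (pseudocount 50), 18.2% (upper quartiles), 22.1% (median of ratios) and 18.5% (correction), and the higher share 7.60% (pseudocount 1), 5.63% (mean of 100) and 7.30% (upper quartiles). Among genes that fell there, the higher share was 17.5% (pseudocount 50) and 18.8% (correction), and the lower share 1.25% (pseudocount 50) and 2.78% (mean of 100). Among the rest the lower share was 13.8% (pseudocount 1), 6.97% (pseudocount 50), 6.75% (no filter), 5.72% (upper quartiles), 8.51% (median of ratios) and 2.97% (correction). The higher share there was 3.12% (pseudocount 1), 1.02% (pseudocount 50), 1.74% (mean of 100), 1.48% (no filter), 6.62% (upper quartiles), 3.71% (median of ratios) and 2.83% (correction). The cause of these moves was not tested. No gene named by the rule and counted at the threshold turned round under the other pseudocounts, the other scalings or the correction. For the 15 highest and 15 lowest differences this was fixed in advance by the rule that chose them. With shRxr in place of shGFP, a comparison added for single genes after seeing the data, 7 of 102 did: Cyp26c1 (0.38), Hoxa5 (0.45), Hoxb9 (0.33), Hoxb6 (1.62), Krt19 (0.16), Krt8 (0.33) and Fgf4 (-0.065). Over the lists as well, 14 of 127 did. Limma called 0 genes under every setting tried, with 1569 at an unadjusted p under 0.05 after the correction. Of 140 named genes, 83 moved by more than their counting interval under the correction and 58 with equal upper quartiles. With shRxr in place of shGFP 90 moved, 7 turned round and 43 did neither. Intervals cover counting error only, and low genes are limited by few reads.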
